A study of Mus musculus with 5 samples.

Results

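The MYC, MAX and MXD network was measured as messenger RNA in 5 lines of NIH/3T3, an immortalised line of mouse embryonic fibroblasts, through 10 genes picked by symbol from the 14454 listed in every table. They are the MYC family genes Myc, Mycn and Mycl1, the partner gene Max, the antagonist genes Mxd1, Mxd3, Mxd4, Mxi1 and Mnt, and the target gene Odc1. In 4 lines, numbered 3, 6, 15 and 18 (T120D), an integrated human histone H2A fused to EGFP carried aspartate in place of the threonine of its tail that can be phosphorylated, and in the reference line (wt) the same fusion was wild type. All 5 lines grew in DMEM with 10% fetal calf serum and 10 µg/ml gentamicin, so every line, wt included, carried an EGFP-H2A fusion and gentamicin. The sources used here do not give the promoter of the fusion or say whether the lines were separate clones, and the fusion's own expression was not analysed here.

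MYC proteins are transcription factors that bind DNA only as pairs with MAX, chiefly at the E box CACGTG, and recruit histone acetyltransferase complexes that favour transcription. MXD proteins and MNT pair with the same MAX, bind the same E boxes and recruit the SIN3-HDAC corepressor complex, so that the 2 sides compete for MAX and for sites. In fibroblasts MYC is induced by serum growth factors and drives genes of ribosome production, nucleotide synthesis and polyamine synthesis. Odc1 encodes ornithine decarboxylase, which makes putrescine and is a classic MYC target.

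The E box stands in the promoter windows of 3 members, shown here because the network can act on its own genes. RefSeq windows of the build GRCm38.p6, from 250 bases before to 50 after an annotated start, were matched for 9 of the 10 members (not Myc). The motif searched was CACGTG, which reads the same on both strands. It occurred 1 time each in the windows of Mxd4, Mnt and Max, where 7.15% of all 32851 windows held it, and 12.3% of the 8093 tested genes with a window. The sequences run 5′ to 3′ on the gene's strand up to the start, for Mxd4 (chr5:34187711-34187960, minus strand) and Mnt (chr11:74830674-74830923, plus strand), with the E box in capitals. The Odc1 window (chr12:17544623-17544872, plus strand) is shown because Odc1 is the member that was called, and these letters do not occur in it. The Max site (chr12:76962234-76962263, minus strand) is given as 30 bases, since its E box begins 3 bases before the start and crosses it.
Mxd4: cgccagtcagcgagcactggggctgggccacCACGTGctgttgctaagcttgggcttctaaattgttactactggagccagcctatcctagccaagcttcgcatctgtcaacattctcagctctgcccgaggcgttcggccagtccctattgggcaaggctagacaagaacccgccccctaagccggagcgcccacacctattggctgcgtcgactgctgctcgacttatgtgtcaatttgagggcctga
Mnt: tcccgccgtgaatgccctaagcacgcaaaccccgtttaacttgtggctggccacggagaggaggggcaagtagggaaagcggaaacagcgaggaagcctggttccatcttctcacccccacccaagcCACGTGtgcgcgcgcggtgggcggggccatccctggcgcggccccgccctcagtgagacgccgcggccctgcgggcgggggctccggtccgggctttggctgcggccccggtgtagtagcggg
Max: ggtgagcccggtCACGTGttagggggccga
Odc1: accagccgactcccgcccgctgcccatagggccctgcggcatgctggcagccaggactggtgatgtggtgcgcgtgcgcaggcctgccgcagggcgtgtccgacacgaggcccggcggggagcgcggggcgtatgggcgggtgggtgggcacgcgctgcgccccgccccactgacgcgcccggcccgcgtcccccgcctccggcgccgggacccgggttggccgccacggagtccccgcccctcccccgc
The E box began 219 bases before the start of Mxd4 and 123 bases before that of Mnt. A match describes letters only and shows no binding in these cells. Absence of a match, as for Odc1, holds for the window searched and says nothing of the rest of the gene.

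Each line gave 1 library. Values are RPKM, reads per kilobase of transcript scaled to the mapped reads of the library, which lets genes be compared per length. The estimated depth was 2520000 to 2700000 reads in the T120D lines and 2720000 in the wt line, counting error only being covered by the intervals that rest on it. Over the 10052 genes that averaged at least 1 RPKM, T120D lines correlated with each other on the log2(RPKM + 1) scale at r = 0.9708 to 0.9754 (Pearson, across genes) and with wt at 0.9147 to 0.9262. Differences are T120D minus wt on the log2(RPKM + 1) scale, which understates those of weakly expressed genes, and a gene was called when its limma p, adjusted over all 10052 genes, was under 0.05. The spread came from the T120D lines, since there was 1 wt line, and the smallest one-sided p that exact permutation allows with these lines is 0.2. All 10 fibroblast markers checked were measured, with a summed level of 2322 to 2648 RPKM in T120D and 2823 RPKM in wt. By limma 5 of them were lower and 1 higher in T120D (60% called, beside 13.1% over all tested genes). Pdgfrb, 1 of the 5 lower markers, is also counted among the repressed MYC targets below. The summed markers of macrophages were at 2.88 to 7.27 RPKM in T120D and 3.52 in wt, those of neural cells at 3.02 to 4.69 and 4.11 RPKM, and those of endothelial, epithelial and skeletal muscle cells at no more than 0.683 RPKM in any line. In bulk RNA, fewer expressing cells and less RNA per cell cannot be told apart. The part of the fibroblast marker difference in the results below was not tested.

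Odc1 was the 1 member called, at nearly double its wt level in every T120D line. Its level was 21.4, 22.3, 22.9 and 20.6 RPKM in T120D lines 3, 6, 15 and 18, against 10.9 RPKM in wt. The groups did not overlap, and the 4 T120D lines lay within 1.11-fold of each other. The mean was 21.8 ± 1.01 RPKM (SD, n = 4) in T120D, 1.99-fold above wt, with a log2 difference of 0.93 (SE 0.13, 95% interval 0.64 to 1.22, limma adjusted p = 0.00238). About 119, 133, 134 and 119 reads stood behind the T120D values and about 66 behind the wt value, with exact Poisson intervals of 98.6 to 142.4 at the lowest T120D count and 51.04 to 84.0 in wt. Among all tested genes, 2.96% had a difference as high. A snoRNA gene, Gm22748, lies within Odc1 on the same strand, and the mouse genome holds further sequences related to Odc1; how reads shared with them were counted is not stated.

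Over all tested genes 13.1% were called, 7.65% as higher and 5.45% as lower in T120D. Of the 8 members that passed the expression minimum, 1 was higher and 0 were lower by limma. At an unadjusted p under 0.05 there were 4, Odc1 and Myc as higher and Mxd4 and Mxi1 as lower, where 28.5% of all tested genes reached that level. The median log2 difference of the 8 tested members was -0.18, beside -0.0175 over all tested genes. The 10 members were all listed in every table, and Mycn and Mycl1 fell under the minimum.

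**Figure D1:**
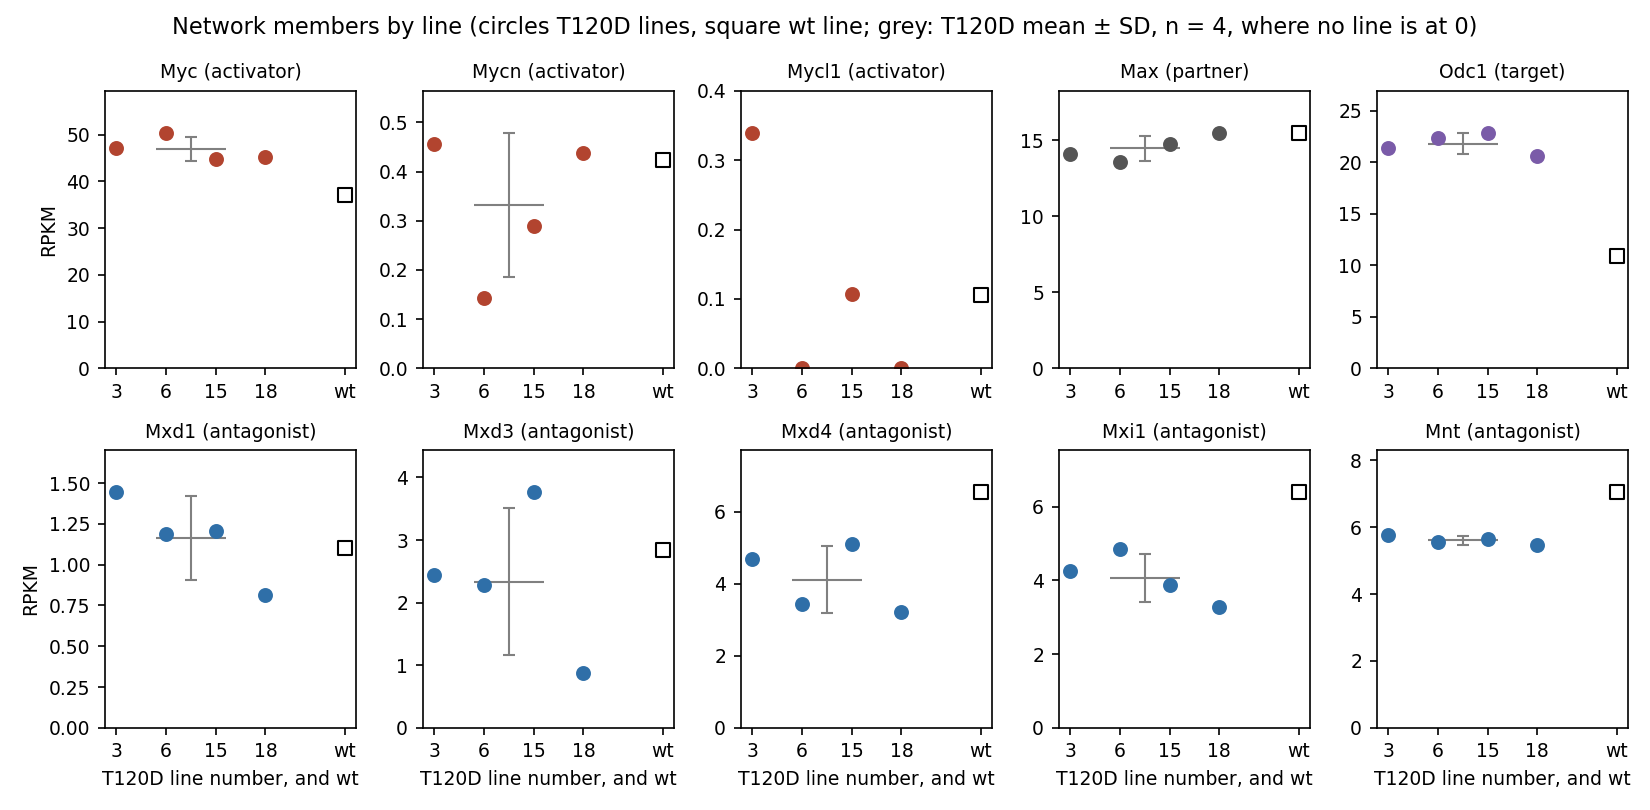
RPKM of the 10 members in T120D lines 3, 6, 15 and 18 (circles, left) and in the wt line (square, right), each panel with its own axis from 0; grey bars give the T120D mean ± SD (n = 4) where no line was at 0. Odc1 and Myc lie above wt in all 4 T120D lines, Max, Mxd4, Mxi1 and Mnt lie below it, and Mycn, Mycl1, Mxd1 and Mxd3 overlap it. Of all tested genes, 31.1% lie above wt and 32.3% below it in all 4 T120D lines.

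On the activating side nearly all RNA came from Myc, which was somewhat above wt in every T120D line but was not called. Myc, the broadly expressed member of the family, was at 47.2, 50.4, 44.8 and 45.3 RPKM in T120D lines 3, 6, 15 and 18, against 37.2 RPKM in wt. All 4 T120D values lay above wt, by 1.21-fold to 1.35-fold, with line 6 the highest. The mean of 46.9 ± 2.52 RPKM (SD, n = 4) in T120D was 1.26-fold that of wt (log2 difference 0.33, SE 0.11, 95% interval 0.07 to 0.58, limma adjusted p = 0.0916). Before adjustment the limma p was 0.0175. A difference of at least that size, in either direction, was found for 42.7% of all tested genes, and 31.1% of them had all T120D lines above wt. About 278 to 318 reads in the T120D lines and 236 in wt carried the value, so Myc is the member measured with the least relative counting error. Even so, the Poisson interval of wt, 206.8 to 268.1 reads, overlapped those of lines 3, 15 and 18, each 246.3 to 312.7 reads. That of line 6, 284 to 354.9 reads, lay above it.

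Mycn and Mycl1, which encode the N-MYC and L-MYC proteins best known from neural and lung tissue, were close to the limit of detection. Mycn was at 0.457, 0.142, 0.289 and 0.439 RPKM in T120D lines 3, 6, 15 and 18 and at 0.424 RPKM in wt, about 1 to 3 reads in a T120D line and 3 in wt. Mycl1 was at 0.339 RPKM in line 3, 0.107 in line 15 and 0 in lines 6 and 18, against 0.105 RPKM in wt, that is about 3, 1, 0, 0 and 1 reads. The groups overlapped for both genes, and no difference was detectable at this depth. A count of 0 allows up to 3.69 reads by the exact Poisson interval. Myc made up 98.3% to 99.7% of the summed MYC family RPKM in the T120D lines and 98.6% in wt.

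Max, the partner that both sides need, was not called. It was at 14.1, 13.6, 14.7 and 15.5 RPKM in T120D lines 3, 6, 15 and 18 and at 15.5 RPKM in wt. All T120D values were below wt, but line 18 reached 0.998 of the wt value. The mean of 14.5 ± 0.82 RPKM (SD, n = 4) in T120D gave a log2 difference of -0.09 from wt (95% interval -0.41 to 0.22, limma adjusted p = 0.707). The interval therefore spans changes in both directions. Myc exceeded Max 3.34, 3.71, 3.04 and 2.93 times in T120D lines 3, 6, 15 and 18 and 2.40 times in wt.

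The antagonists were measured at lower levels, and 3 of the 5 lay below wt in all 4 T120D lines without being called. Of all tested genes, 32.3% lay below wt in all 4 T120D lines. Mxd4, an MXD protein gene, was at 4.70, 3.44, 5.10 and 3.22 RPKM in T120D lines 3, 6, 15 and 18, against 6.53 RPKM in wt. Every T120D line was below wt, and lines 6 and 18 were the lowest. The mean of 4.11 ± 0.92 RPKM (SD, n = 4) in T120D was 1.59-fold under that of wt (log2 difference -0.58, SE 0.25, 95% interval -1.14 to -0.02, limma adjusted p = 0.164). Its unadjusted limma p was 0.0449. Behind these values stood about 46, 36, 52 and 33 reads in T120D and 69 in wt. The Poisson interval of wt, 53.7 to 87.3 reads, overlapped those of line 3, 33.7 to 61.4 reads, and line 15, 38.8 to 68.2 reads.

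Mxi1, whose product is also called MXD2, was at 4.25, 4.86, 3.89 and 3.27 RPKM in T120D lines 3, 6, 15 and 18 and at 6.39 RPKM in wt. The groups did not overlap, and the order of the lines differed from that of Mxd4, line 6 being the highest here. Its mean of 4.07 ± 0.66 RPKM (SD, n = 4) in T120D was 1.57-fold under wt (log2 difference -0.55, SE 0.22, 95% interval -1.05 to -0.06, limma adjusted p = 0.134). Unadjusted, the limma p was 0.0323. About 28, 35, 27 and 23 reads stood behind the values of T120D lines 3, 6, 15 and 18, and 46 behind that of wt. The Poisson interval of wt, 33.7 to 61.4 reads, overlapped that of every T120D line. Mxi1 has 3 RefSeq transcripts of different length in the annotation, so its RPKM depends on the length the authors used.

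Mnt encodes the broadly expressed antagonist that, unlike Mxd1, is not tied to differentiation. It was at 5.78, 5.56, 5.65 and 5.46 RPKM in T120D lines 3, 6, 15 and 18, against 7.04 RPKM in wt. The T120D lines were nearly identical, within 1.06-fold, and all lay below wt. The mean of 5.61 ± 0.13 RPKM (SD, n = 4) in T120D was 1.25-fold under wt (log2 difference -0.28, SE 0.17, 95% interval -0.66 to 0.10, limma adjusted p = 0.313). limma's moderated spread for Mnt is wider than the spread between the 4 lines, and the reads, about 66 to 69 in T120D and 88 in wt, had overlapping Poisson intervals.

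For Mxd1 and Mxd3 the T120D lines lay on both sides of wt. Mxd1, an antagonist known to rise as cells differentiate, was at 1.44, 1.19, 1.21 and 0.814 RPKM in T120D lines 3, 6, 15 and 18 and at 1.10 RPKM in wt. Line 18 was below wt and the other 3 above (log2 difference 0.03, 95% interval -0.61 to 0.68, limma adjusted p = 0.951), and without line 3 the difference was -0.03. Mxd3, an antagonist linked to S phase in cycling cells, was at 2.44, 2.27, 3.76 and 0.877 RPKM in T120D lines 3, 6, 15 and 18, against 2.83 RPKM in wt. It was the most scattered tested member, with line 15 above wt, 3 lines below it and a 4.29-fold range among T120D lines on about 3 to 13 reads (log2 difference -0.28, 95% interval -1.23 to 0.68, limma adjusted p = 0.713). The log2 difference of Mxd3 was -0.02 without line 18 and -0.47 without line 15. Mxd3 overlaps Prelid1 on the opposite strand, and whether counting used the strand is not stated, so reads of the 2 genes may be mixed. The same limit holds for Mxd4 and Mxi1, which also overlap annotated genes on the opposite strand. Max and Mxd1 overlap annotated genes on the same strand.

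**Figure D2:**
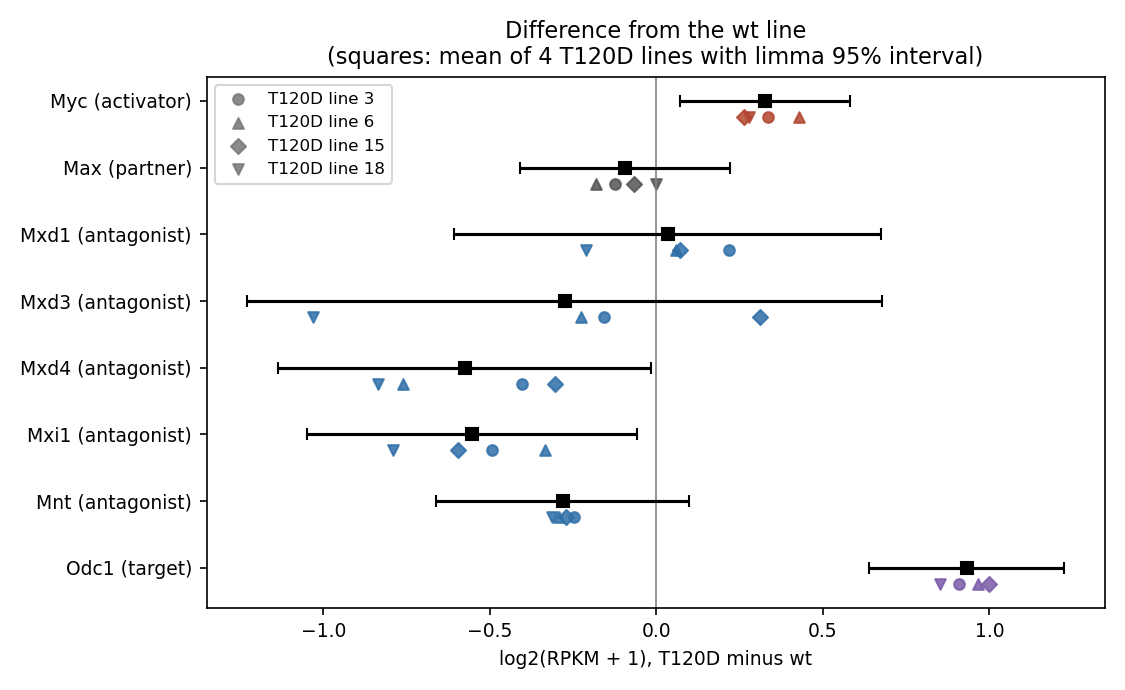
Difference from wt in log2(RPKM + 1) for the 8 tested members. Squares with bars give the mean of the 4 T120D lines and the limma 95% interval, and smaller symbols the single lines; the interval of Odc1 runs from 0.64 to 1.22, while those of Max, Mxd1, Mxd3 and Mnt include 0.

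By mean level the members fell into an order of abundance with 1 exchange between groups. By mean RPKM the order in T120D was Myc, Odc1, Max, Mnt, Mxd4, Mxi1, Mxd3, Mxd1, Mycn and Mycl1. In single lines Mxi1 exceeded Mxd4 in line 6 (4.86 against 3.44 RPKM) and line 18 (3.27 against 3.22 RPKM). In wt, Max (15.5 RPKM) stood above Odc1 (10.9 RPKM), and the rest kept this order. Mxd4 and Mxi1, with 4.11 and 4.07 RPKM in T120D, against 6.53 and 6.39 RPKM in wt, did not differ beyond their spread. The levels of Mxd1 and Mxd3 overlapped among T120D lines, because line 18 had 0.877 RPKM of Mxd3. Of the 7 tested factors of the network, 1 (Myc) lay above wt in all T120D lines, 4 (Max, Mxd4, Mxi1 and Mnt) lay below wt in all of them, and 2 overlapped. Over all tested genes 31.1% lay wholly above and 32.3% wholly below the wt line, and 63.4% were on either side, so lack of overlap alone is common here.

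Set against each other as summed RNA, activators outweighed antagonists more in each T120D line than in the 1 wt line, though none of these genes was called. The summed RPKM of Myc, Mycn and Mycl1 was 47.96, 50.5, 45.2 and 45.7 in T120D lines 3, 6, 15 and 18, against 37.7 in wt. That of the 5 antagonists was 18.6, 17.3, 19.6 and 13.7 RPKM in T120D lines 3, 6, 15 and 18, against 23.9 RPKM in wt. All T120D lines were above wt in the first sum and below it in the second. Their ratio was 2.58, 2.92, 2.30 and 3.35 in T120D lines 3, 6, 15 and 18, against 1.58 in wt. The mean ratio was 2.79 ± 0.45 (SD, n = 4) in T120D, 1.77 times that of wt. On the log2 scale the ratio was 0.81 higher in T120D than in wt, with an SD of 0.23 between T120D lines, and it was 0.40 higher when the mean of log2(RPKM + 1) over genes was taken instead of sums. No p is given, because the genes were chosen as a group and 1 wt line allows none under 0.2.

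Within T120D the ratio varied mostly through the antagonists. Line 18 had the lowest level of all 5 antagonists among the T120D lines and the highest ratio. Line 15, with the highest Mxd3 and Mxd4 and also the lowest MYC family sum (45.2 RPKM), had the lowest ratio. In line 18 about 66 reads stood behind Mnt, 33 behind Mxd4, 23 behind Mxi1, 10 behind Mxd1 and 3 behind Mxd3. For each antagonist the Poisson interval of line 18 overlapped those of the other T120D lines, so these ranks may be counting error. Mnt was the largest share of the antagonist sum in every line, at 28.8% to 40.0% in T120D and 29.5% in wt. Mxd4 made up 19.9% to 26% in T120D and 27.3% in wt, Mxi1 19.8% to 28.1% and 26.7%. The antagonist sum stood at 1.32, 1.28, 1.33 and 0.882 times the level of Max in T120D lines 3, 6, 15 and 18, against 1.54 times in wt. Odc1 per unit of Myc, both in RPKM, was 0.454, 0.443, 0.510 and 0.454 in T120D lines 3, 6, 15 and 18, against 0.294 in wt, so Odc1 differed from wt more than Myc did in every T120D line.

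**Figure D3:**
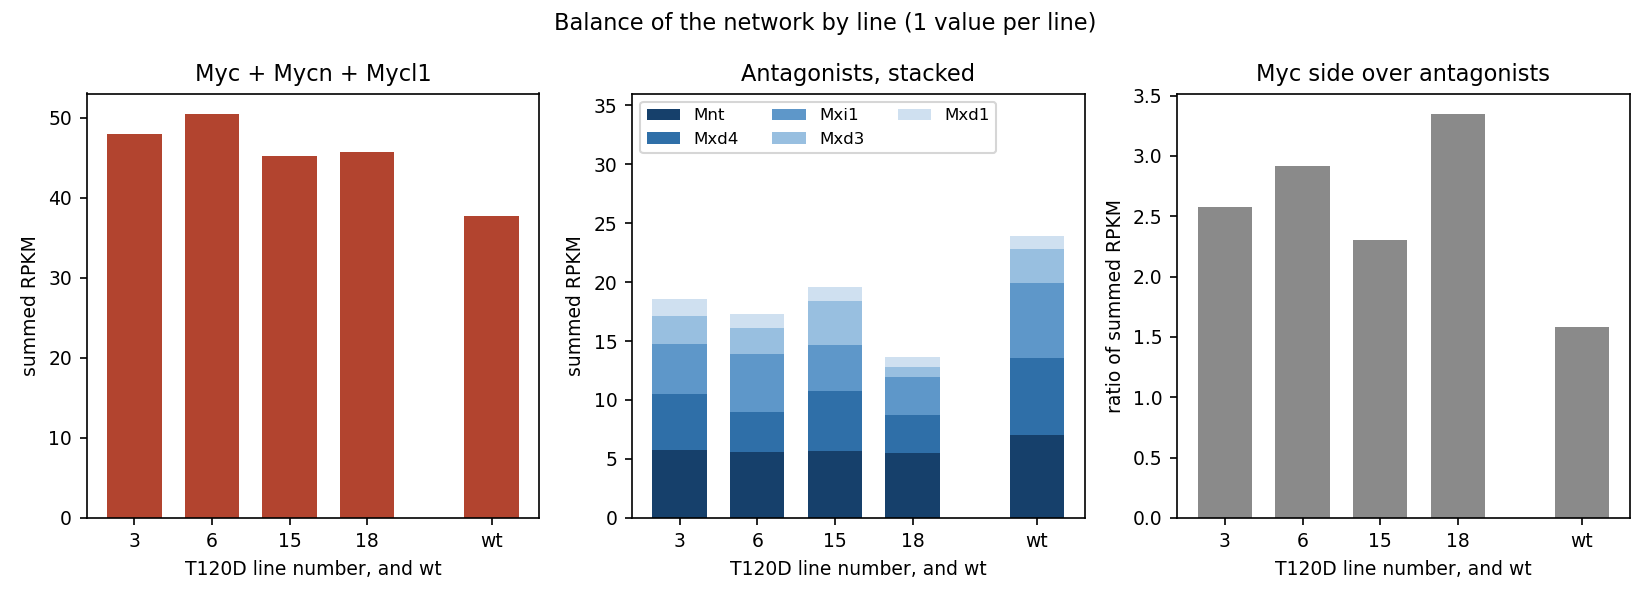
Summed RPKM of Myc, Mycn and Mycl1, of the 5 antagonists (stacked), and their ratio, in T120D lines 3, 6, 15 and 18 (left) and wt (right), 1 value per line. The ratio is 2.30 to 3.35 in the T120D lines and 1.58 in wt, and line 18 has the smallest antagonist bar.

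Odc1 opens the polyamine pathway, and several of its later genes were higher as well. Of 18 tested polyamine genes, 5 (Odc1 included) were higher and 1 lower in T120D (33.3% called, beside 13.1% over all genes), with a median log2 difference of 0.23. This list and those below were chosen with earlier results of these data known, so their shares only describe the lists. Srm, the spermidine synthase gene, was at 38.7, 29.8, 37.1 and 29.7 RPKM in T120D lines 3, 6, 15 and 18, against 18.5 RPKM in wt (log2 difference 0.83, SE 0.17, limma adjusted p = 0.0143). Sms, the spermine synthase gene, was at 12.1, 10.8, 14.9 and 12.4 RPKM in T120D lines 3, 6, 15 and 18, against 4.34 RPKM in wt (log2 difference 1.33, SE 0.18, limma adjusted p = 0.00232). All T120D lines were above wt for both synthases. The other higher genes were Azin1 and Eif5a. Azin1, encoding the antizyme inhibitor that protects ornithine decarboxylase from degradation, averaged 23.3 ± 2.25 RPKM (SD, n = 4) in T120D, against 15.9 in wt. Its limma adjusted p of 0.0485 was just under the threshold. Eif5a, whose product carries hypusine made from spermidine, averaged 361.7 ± 17.2 RPKM in T120D, against 274.7 in wt (limma adjusted p = 0.0191). Azin1 and Eif5a were picked after their values were seen. Mtap, which salvages methylthioadenosine, the by-product of spermidine and spermine synthesis, was lower, at 66.3 ± 4.20 RPKM in T120D, against 133.3 RPKM in wt (2.01-fold lower, limma adjusted p = 0.000753).

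Genes that restrain or break down polyamines were not called. Oaz1, the antizyme gene, averaged 47.4 ± 5.55 RPKM in T120D (SD, n = 4), against 44.7 RPKM in wt, and Sat1, the acetyltransferase gene of polyamine catabolism, 19.9 ± 5.02 RPKM in T120D, against 19.7 RPKM in wt. Amd1, which supplies the aminopropyl donor, averaged 12.2 ± 1.28 RPKM in T120D, against 9.11 RPKM in wt (log2 difference 0.38, limma adjusted p = 0.175). Oaz1, Sat1 and Amd1 were picked after their values were seen. Without the filter on low values, and by limma without a trend, 2 polyamine genes were higher instead of 5, and the call of Srm ended (limma adjusted p = 0.0844 and 0.055). With a pseudocount of 0.1 RPKM, with quantile normalization, and without line 3, 6 or 15, 4 were higher.

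Genes known to be induced by MYC were more often higher than lower. Of 45 tested genes of metabolism, cell cycle and translation, 13 were higher and 0 lower (28.9% called, beside 13.1%), with a median log2 difference of 0.30. The choice of these genes was made with earlier results of these data known, so the share is no independent support. At an unadjusted limma p under 0.05 there were 21 higher and 1 lower of the 45, beside 28.5% of all tested genes in either direction. Tfrc, the transferrin receptor gene, averaged 43.3 ± 2.13 RPKM in T120D (SD, n = 4), against 19.3 RPKM in wt (log2 difference 1.12, limma adjusted p = 0.000517). Cdc25a, a phosphatase gene that activates CDK2, averaged 7.75 ± 0.32 RPKM in T120D, against 3.03 RPKM in wt (log2 difference 1.12, limma adjusted p = 0.00352). Ppat, which begins purine synthesis, and Phb, encoding prohibitin of the mitochondrial inner membrane, averaged 9.51 ± 0.87 and 17.9 ± 1.76 RPKM in T120D, against 5.03 and 10.2 RPKM in wt. Other textbook MYC targets did not pass, among them Ncl (67.5 ± 5.95 RPKM in T120D, 54.8 in wt), Npm1 (176.3 ± 19.2 and 179.4 RPKM) and Cdk4 (91.3 ± 3.15 and 110.6 RPKM), named after their values were seen. By limma without a trend 7 of the 45 were higher, and with no expression minimum the call of Phb ended (limma adjusted p = 0.0549).

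Nucleolar genes, which serve ribosome production, showed the same direction with the highest median of the 9 lists. Of 39 tested, 11 were higher and 0 lower (28.2% called, beside 13.1%), and the median log2 difference was 0.46. This list, too, was chosen with earlier results of these data known. At an unadjusted limma p under 0.05 there were 23 higher and 0 lower of the 39, beside 28.5% of all tested genes in either direction. Nop56, a protein of box C/D snoRNPs, averaged 45.7 ± 4.08 RPKM in T120D (SD, n = 4), against 23.8 RPKM in wt (log2 difference 0.91, limma adjusted p = 0.0031). Nop2, an rRNA methyltransferase gene, averaged 33.2 ± 3.65 RPKM in T120D, against 18.2 RPKM in wt, and Ddx21, an RNA helicase gene, 43.9 ± 2.57 RPKM in T120D, against 24.8 RPKM in wt. Rrp9 averaged 4.02 ± 0.50 RPKM in T120D, against 1.91 RPKM in wt, and its call ended without line 3, 6 or 18 (limma adjusted p = 0.0877, 0.0659 and 0.077). The list had 6 higher genes without the filter on low values or without a trend, and 7 without line 3, and the call of Nop2 ended without the filter (limma adjusted p = 0.0542).

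The E box CACGTG occurred in the windows of 12 of 42 induced target genes (28.6%) and 9 of 33 nucleolar genes (27.3%) with a window, beside 12.3% of all tested genes. It occurred in 3 of 15 polyamine genes and in 2 of 10 repressed targets (20% each), in 2 of 13 coactivators (15.4%), in 1 of 12 corepressors (8.33%) and in 1 of 13 turnover genes (7.69%). Among the other E box factors 0 of 7 held it, and 1 of 3 genes of the MLX branch and Mga. These shares describe sequence and were not tested.

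Genes known to be repressed by MYC moved in both directions. Of 14 tested, 4 were higher and 5 lower (64.3% called, beside 13.1%), with a median log2 difference of -0.31 and a mean of 0.04, which differ in sign. Gas1, a growth-arrest gene of fibroblasts, averaged 21.2 ± 2.16 RPKM in T120D (SD, n = 4), against 88.2 RPKM in wt (log2 difference -2.01, limma adjusted p = 0.000107). Txnip, which binds thioredoxin and limits glucose uptake, averaged 10.9 ± 1.82 RPKM in T120D, against 43.4 RPKM in wt (log2 difference -1.91, limma adjusted p = 0.000467). In the other direction, the matricellular genes Ctgf and Thbs1 averaged 192.3 ± 18.2 and 100.2 ± 10.6 RPKM in T120D, against 14.5 and 10.1 RPKM in wt. Cdkn1a, the p21 gene and a standard repressed target, averaged 135.7 ± 10.03 RPKM in T120D, against 110.6 RPKM in wt (log2 difference 0.29, limma adjusted p = 0.113). Cdkn1a was picked after its value was seen. By limma without a trend 2 of the 14 were higher instead of 4.

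Among genes of the machinery through which the 2 sides act, Rbbp7 had the largest difference. None of 14 tested MYC coactivator genes was called (0 higher and 0 lower, also at an unadjusted limma p under 0.05), and their differences ran from -0.39 to 0.31. Wdr5, which anchors MYC to chromatin, averaged 17.2 ± 0.92 RPKM in T120D (SD, n = 4), against 15.4 RPKM in wt. Among 15 corepressor genes 3 were higher and 0 lower (20% called, beside 13.1% over all tested genes), with a median of 0.07. At an unadjusted limma p under 0.05 there were 3 higher and 1 lower of the 15, beside 28.5% of all tested genes. Rbbp7, a histone chaperone gene of the SIN3 and other complexes, was at 116.3, 112.0, 129.8 and 119.9 RPKM in T120D lines 3, 6, 15 and 18, against 38.9 RPKM in wt. All T120D lines were far above wt, 3.07-fold in the mean (log2 difference 1.59, SE 0.11, limma adjusted p = 7.29e-05). Sap30 and Ing1, both SIN3 complex genes, averaged 6.42 ± 0.72 and 15.1 ± 1.08 RPKM in T120D, against 3.41 and 9.52 RPKM in wt. Their calls were less stable: 1 corepressor gene was higher without the filter on low values, without line 3 or without line 18, and Sap30 was also not called without line 15 (limma adjusted p = 0.0619). Sin3a itself, the scaffold bound by MXD proteins, averaged 7.49 ± 0.63 RPKM in T120D, against 7.45 RPKM in wt, and was picked after its value was seen.

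Of 15 genes acting on the stability of the MYC protein, 2 were higher and 0 lower (13.3% called, beside 13.1% over all tested genes), with a median of 0.19. At an unadjusted limma p under 0.05 there were 4 higher and 1 lower, where 28.5% of all tested genes reached that level, so the list's shares were near those of all genes. Usp36, a nucleolar deubiquitinase gene, averaged 7.95 ± 1.17 RPKM in T120D (SD, n = 4), against 4.12 RPKM in wt (log2 difference 0.80, limma adjusted p = 0.0304). C330027C09Rik, listed by RefSeq as Cip2a, an inhibitor of PP2A that protects MYC, averaged 11.6 ± 0.83 RPKM in T120D, against 7.66 RPKM in wt (limma adjusted p = 0.0497). Neither was called without the filter on low values, without a trend or without line 18, and the call of C330027C09Rik also ended without line 3, 6 or 15. The counts of this list were then 0 or 1.

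Other factors that read the E box had differences from -1.29 to 0.01. Of 9 tested, 2 were lower and 0 higher (22.2% called, beside 13.1% over all tested genes, of which 5.45% as lower), with a median of -0.47. At an unadjusted limma p under 0.05 there were 4 lower and 0 higher, beside 28.5% of all tested genes in either direction. With a pseudocount of 0.1 RPKM, or a minimum mean of 5 RPKM, 1 of them was lower. Bhlhe40, a circadian and stress-response repressor gene, was at 5.21, 7.59, 5.91 and 5.61 RPKM in T120D lines 3, 6, 15 and 18, against 16.1 RPKM in wt (log2 difference -1.29, limma adjusted p = 0.00494). Mitf averaged 0.779 ± 0.20 RPKM in T120D (SD, n = 4), against 3.04 RPKM in wt, and its call ended with a pseudocount of 0.1 RPKM (limma adjusted p = 0.0644). Mitf passed the minimum mean of 1 RPKM only through its wt value. A gene tested on that ground can hardly be other than lower, so Mitf adds no support to the list's count. In the MLX branch MLX pairs with glucose-sensing factors and with some MXD proteins: Mlx averaged 9.88 ± 1.47 RPKM in T120D, against 7.33 RPKM in wt, and Mlxip 9.05 ± 0.59 RPKM in T120D, against 8.66 RPKM in wt. Mga, whose product pairs with MAX outside that branch, averaged 5.36 ± 0.44 RPKM in T120D, against 7.07 RPKM in wt (log2 difference -0.35, limma adjusted p = 0.245). Mga was picked after its value was seen. Mlx lay above wt and Mga below it in all 4 T120D lines. Of these 3 genes, 0 were called by limma, and 0 had an unadjusted p under 0.05.

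**Figure D4:**
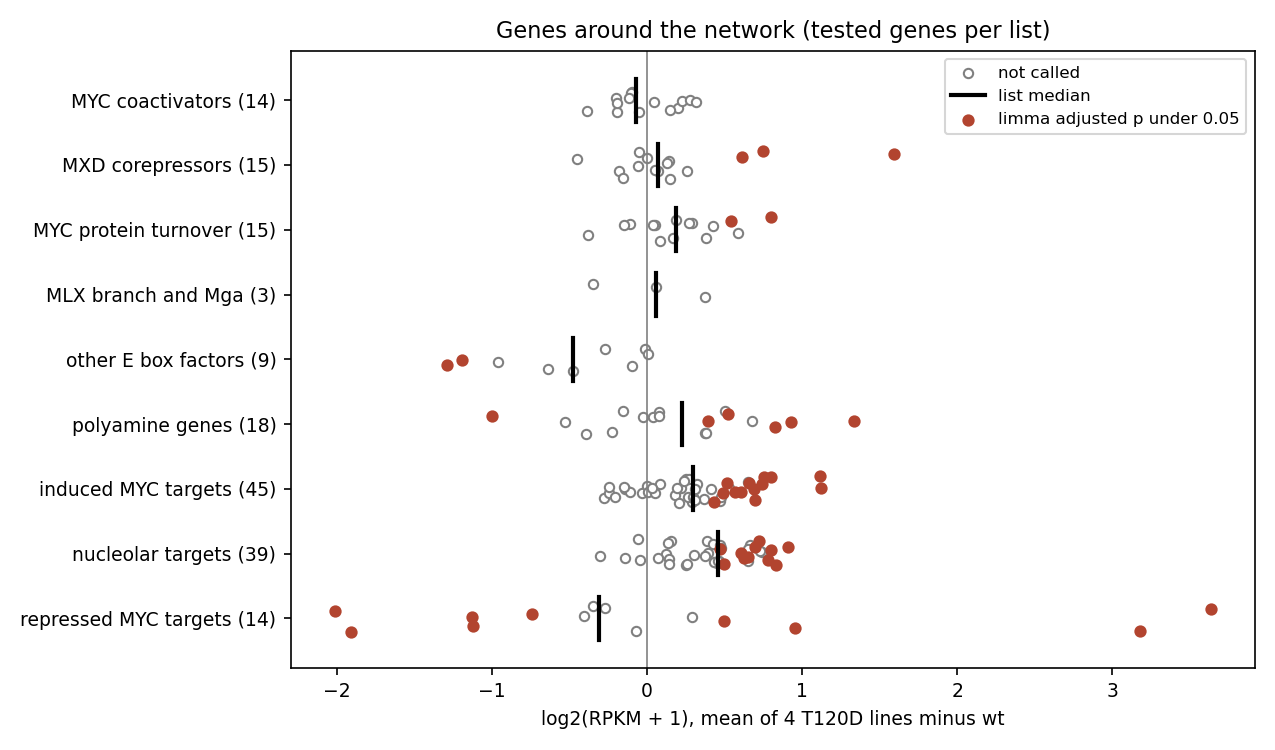
Log2(RPKM + 1) difference, T120D mean minus wt, of each tested gene in 9 lists around the network (number tested in brackets; filled points have a limma adjusted p under 0.05, black bars are list medians). The medians of the induced and nucleolar targets are 0.30 and 0.46, and the repressed targets spread from -2.01 to 3.64.

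The genes whose profile over the 5 lines lay closest to that of Myc, by root mean square distance of centred log2(RPKM + 1), were Hspa8, Heatr5a and Nr1h5, at distances of 0.017 to 0.02. Hspa8, a constitutive chaperone gene, was at 189.3, 200.9, 185.0 and 184.7 RPKM in T120D lines 3, 6, 15 and 18, against 152.3 RPKM in wt. Closest to Odc1 were Sipa1l3, Col8a1 and Fzr1, at distances of 0.0274 to 0.0374. Col8a1, a collagen gene, was at 32.6, 32.9, 33.7 and 31.6 RPKM in T120D lines 3, 6, 15 and 18, against 17.4 RPKM in wt. With 5 lines, the step between T120D and wt fixes most of such a profile.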

How the data were processed

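Messenger RNA libraries of 4 T120D lines and 1 wt line were sequenced, 1 library a line; per the labels' protocols the kit was a stranded TruSeq mRNA kit. The authors deposited RPKM values for 14454 gene symbols per line. Partek and the build mm9 are named per the submitters' processing notes; no source used here gives the aligner, the gene annotation or how strand was treated. The labels do not say that the lines came from separate clones or cultures, so p-values measure the spread between these samples, which may be technical.

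Depth was estimated from genes with 1 transcript in GENCODE vM21, as the number of reads at which the largest share of low values was whole, within 0.05 reads: 48.3% to 53.1% of them. The steps did not give whole reads widely enough for a count test. Reads per member follow from this depth and the longest GENCODE transcript with a RefSeq match, are approximate and were not tested. Genes averaging 1 RPKM or more over the 5 lines were fitted with limma 3.58.1 in R 4.3.3 on log2(RPKM + 1), with an intensity trend and Benjamini-Hochberg adjustment over 10052 genes (3 residual and 5.99 prior degrees of freedom); the single wt line was taken to vary as the T120D lines do. The procedure was tested on simulated data. Named genes are all members and, from each list, up to 4 called genes with the largest difference or, where fewer than 2 were called, the most abundant ones; other names are marked as picked after their values were seen. A gene that this rule names among the coactivators is not reported here. The members and lists were chosen with earlier results of these data known. Alternatives were other pseudocounts, filters, scalings, no trend, and each T120D line left out. Promoter sequences are RefSeq's (GRCm38.p6), a different build from mm9.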

Additional observations from a re-analysis of the deposited data

How the results depend on the processing

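Odc1 was the 1 member called under all 10 alternatives run, with log2 differences of 0.90 to 0.99 and limma adjusted p of 0.00171 to 0.0171. No other member was called in any of them: the limma adjusted p ran from 0.076 to 0.216 for Myc, from 0.124 to 0.281 for Mxd4 and from 0.0954 to 0.201 for Mxi1. The difference of Mxd1 was -0.0272 without T120D replicate 3 and up to 0.1157 with another T120D line left out, so its sign rests on line 3. Over all tested genes, 769 were higher and 548 lower; without the filter on low values 434 were higher, and by limma without a trend 455 were higher and 361 lower. Leaving out single T120D lines gave 560 to 796 higher and 395 to 586 lower genes. The log2 shift of activators over antagonists, 0.81, was 0.88 without Mnt and 0.71 to 0.89 with single lines left out, and 0.40 as a mean of log2(RPKM + 1); that alternative gives Mycn and Mycl1, near 0 in every line, the same weight as Myc. Of 334 values of 34 named genes under the alternatives, 307 kept direction and side of the threshold, 26 lost the call and 1 changed sign. At a mean of at least 5 RPKM, Mxd1, Mxd3, Mxd4 and Mxi1 were not tested. No paired analysis was possible because the T120D and wt lines share no replicate number. Depth limits Mycn, Mycl1 and Mxd3 most.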
